A study of Mus musculus with 21 samples.

Results

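The 36 genes described here encode factors that make ribosomes. They are the proteins of the box C/D and box H/ACA small nucleolar ribonucleoproteins (snoRNPs), subunits of RNA polymerase I, nucleolar chaperones and processing factors of both ribosomal subunits. They were taken by symbol from a list of such factors, and all 36 were found among the 51201 gene rows of the deposited tables and passed the filter on low counts in both cell types. Polyadenylated RNA was measured in T cells from the spleens of C57BL/6J mice at postnatal day 35. One genotype, L-gp130fl/+;CD4Cre+/- (L-gp130), holds a floxed allele of a constitutively active gp130, the signalling chain common to the interleukin-6 receptor family. Controls were CD4Cre+/- mice, so Cre recombinase, driven by the Cd4 promoter and active in developing T cells before they become CD4+ or CD8+ cells, was present in both genotypes. CD4+ cells were held on magnetic beads by positive selection and CD8+ cells were enriched by removal of other cells, per the labels' protocols. There were 6 L-gp130 CD4, 6 control CD4, 3 L-gp130 CD8 and 6 control CD8 libraries, each from a mouse with its own number within its group.

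Total gene counts did not overlap between the genotypes in CD4 cells, where the deepest L-gp130 library held 21226510 counts (lowest 17781085) and the shallowest control 27855757 (highest 35869208). The CD8 totals overlapped, from 17217364 to 19476881 with the L-gp130 allele and from 17719183 to 19286396 without it. The labels give male sex for 4 of the 6 CD4 and 2 of the 3 CD8 mice with L-gp130, and for 1 of the 6 CD4 and 4 of the 6 CD8 control mice, and sex-linked transcripts matched the label in all but control CD4 replicate 5. That library is labelled female but had male levels of Xist (0.14) and Ddx3y (110) in CPM (normalised counts scaled to a common library size). It was kept as female in the sex covariate and left out in some alternatives. No fit with its sex changed was run, so the sex-adjusted CD4 values carry this doubt. L-gp130 CD4 replicate 1 stood apart on a principal component, and another component separated control CD8 replicates 1 to 3 from 4 to 6. The purity markers followed the labels. Cd4 and Zbtb7b together reached 664 to 979 CPM in L-gp130 and 875 to 1038 in control CD4 libraries, against 38.6 to 45.8 and 23.3 to 42.4 in the CD8 libraries. Cd8a and Cd8b1 together reached 1409 to 1675 and 1852 to 2440.2 CPM in L-gp130 and control CD8 libraries, against 34.5 to 126 and 28.4 to 35.8 in the CD4 libraries.

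Ribosome production starts in the nucleolus, where RNA polymerase I transcribes the long precursor of the ribosomal RNAs. Box C/D snoRNPs, with fibrillarin as methyltransferase, and box H/ACA snoRNPs, with dyskerin as pseudouridine synthase, modify this precursor at sites chosen by their guide RNAs. Large assemblies of processing factors, helicases and GTPases then cut and fold it into the small and large subunits. Growing and dividing cells make more of these factors, and many of their genes are known targets of the transcription factor MYC, which binds the E-box CACGTG. In T cells their transcripts are known to rise on activation, before division. STAT3, activated by gp130, binds sites of the form TTCNNNGAA.

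The start regions of the members are shown first, because the gene list used no sequence and many of these genes are known MYC targets. RefSeq windows of 250 bases before to 50 after a gene's start (GRCm38.p6) were matched by symbol for 31 of the 36 members, in 35 windows. Bop1, Fbl, Npm1, Rrp12 and Rrs1 had no entry. CACGTG, whose reverse complement is itself, lay in 7 of the 35 windows (20%), against 7.15% of all 32851 windows and 9.85% of the 13151 windows of genes tested in CD8 cells. The 7 sites, each with its flanks up to 30 bases in all and the E-box in capitals, were chosen for display after the values were seen.

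Nop2, chr6:125131811-125131840, plus strand: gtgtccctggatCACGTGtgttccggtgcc
Mybbp1a, chr11:72441347-72441376, plus strand: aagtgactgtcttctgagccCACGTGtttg
Wdr43, chr17:71616220-71616249, plus strand: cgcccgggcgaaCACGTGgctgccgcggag
Utp4, chr8:106893643-106893672, plus strand: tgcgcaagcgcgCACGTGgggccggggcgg
Utp20, chr10:88826765-88826794, minus strand: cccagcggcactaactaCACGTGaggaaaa
Tsr1, chr11:74898092-74898121, plus strand: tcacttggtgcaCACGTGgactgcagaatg
Pes1, chr11:3963965-3963994, plus strand: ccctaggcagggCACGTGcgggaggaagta

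The E-box of Nop2 began 60 bases before the start, and those of the other 6 genes between 3 and 41 bases into the transcribed part, counting the start base as 1. TTCNNNGAA, searched after the data were seen and also its own reverse complement, lay in 3 of the 35 windows (8.57%), a share near that of all windows (8.30%) and of windows of genes tested in CD8 cells (7.02%). The 3 genes were Nop58, Polr1b and Noc4l, shown with that motif in capitals.

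Nop58, chr1:59684948-59684977, plus strand: aagtgacgttacTTCCCAGAAttcttagag
Polr1b, chr2:129100969-129100998, plus strand: gaggaactacatTTCCCAGAAggccacggg
Noc4l, chr5:110653357-110653386, minus strand: gcacacttcggtTTCCAGGAAccgggagca

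The 250 bases before the start are given for Nop2, the E-box gene with the smallest p in CD4 cells, and for Ncl, the most abundant of the members that have a window. Capitals mark the E-box. The stretch of Ncl holds neither motif.

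Nop2, chr6:125131633-125131882, plus strand: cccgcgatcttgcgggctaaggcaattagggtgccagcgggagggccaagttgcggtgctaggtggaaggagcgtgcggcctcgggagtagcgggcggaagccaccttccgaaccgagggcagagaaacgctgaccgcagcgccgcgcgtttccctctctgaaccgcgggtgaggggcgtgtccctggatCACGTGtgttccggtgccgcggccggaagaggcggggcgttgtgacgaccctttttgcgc
Ncl, chr1:86359456-86359705, minus strand: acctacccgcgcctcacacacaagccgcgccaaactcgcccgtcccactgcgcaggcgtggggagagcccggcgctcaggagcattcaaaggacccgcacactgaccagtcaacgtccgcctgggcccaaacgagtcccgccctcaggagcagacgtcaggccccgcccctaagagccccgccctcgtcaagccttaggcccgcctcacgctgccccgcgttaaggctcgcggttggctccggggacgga

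In CD8+ T cells, 12 of the 36 transcripts rose with L-gp130 and 0 fell, where 10.5% of the 14254 genes tested rose and 10.5% fell (edgeR quasi-likelihood test, 2-sided, Benjamini-Hochberg adjusted p under 0.05). The 12 were Nop56, Nop58, Polr1b, Nolc1, Gnl3, Nop14, Noc4l, Wdr43, Nop2, Noc2l, Bop1 and Rrp1b, with log2 fold changes from 0.25 for Noc2l to 0.80 for Rrp1b. Log2 fold changes are given ± SE. The log2 fold change was above 0 for 32 members and its median was 0.20, against -0.01 over all genes tested. At an unadjusted p under 0.05, 16 members were higher and 0 lower, where 2452 and 2572 of all 14254 genes tested were. DESeq2 called 15 members higher and 0 lower, and 1859 and 1829 of all 14254 genes. Every L-gp130 library was above every control for 11 members, where 11.7% of genes tested were, and below every control for 0 members (12.4% of genes tested). In bulk libraries more cells with a transcript and more of it per cell cannot be told apart.

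In CD4+ T cells Nhp2, Nolc1 and Noc4l rose and 0 members fell, where 11.1% of the 15016 genes tested rose and 7.75% fell (edgeR adjusted p under 0.05). The log2 fold changes lay between -0.22 for Polr1b and 0.32 for Noc4l, with a median of 0.04 against -0.01 over all genes tested, and 21 of 36 were above 0. At an unadjusted p under 0.05, 7 members were higher and 2 lower, where 2791 and 2227 of all 15016 genes tested were. DESeq2 called 5 members higher and 0 lower, and 13.9% and 10.3% of all genes. Every L-gp130 library was above every control for 4 members (Nhp2, Ncl, Nolc1 and Noc4l), where 7.68% of genes tested were, and below every control for 0 members (5.85% of genes tested). Without L-gp130 CD4 replicate 6, edgeR called 0 members in CD4 cells, where 5.33% of all genes tested rose and 3.79% fell. Without control CD4 replicate 1, 3, 4 or 6 it called Nhp2 alone, where 6.48% to 9.02% of all genes rose. Without L-gp130 CD4 replicate 4 it called 4 higher (Nop2 added) and 1 lower (Heatr1), where 11.9% and 9.83% of all genes were. Without the sex covariate it called 7 higher and 1 lower (Polr1a), where 15.8% and 11.8% of all genes were. With all CD4 libraries thinned to equal depth it called Nhp2 and Noc4l, where 10.8% of all genes rose.

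**Figure D1:**
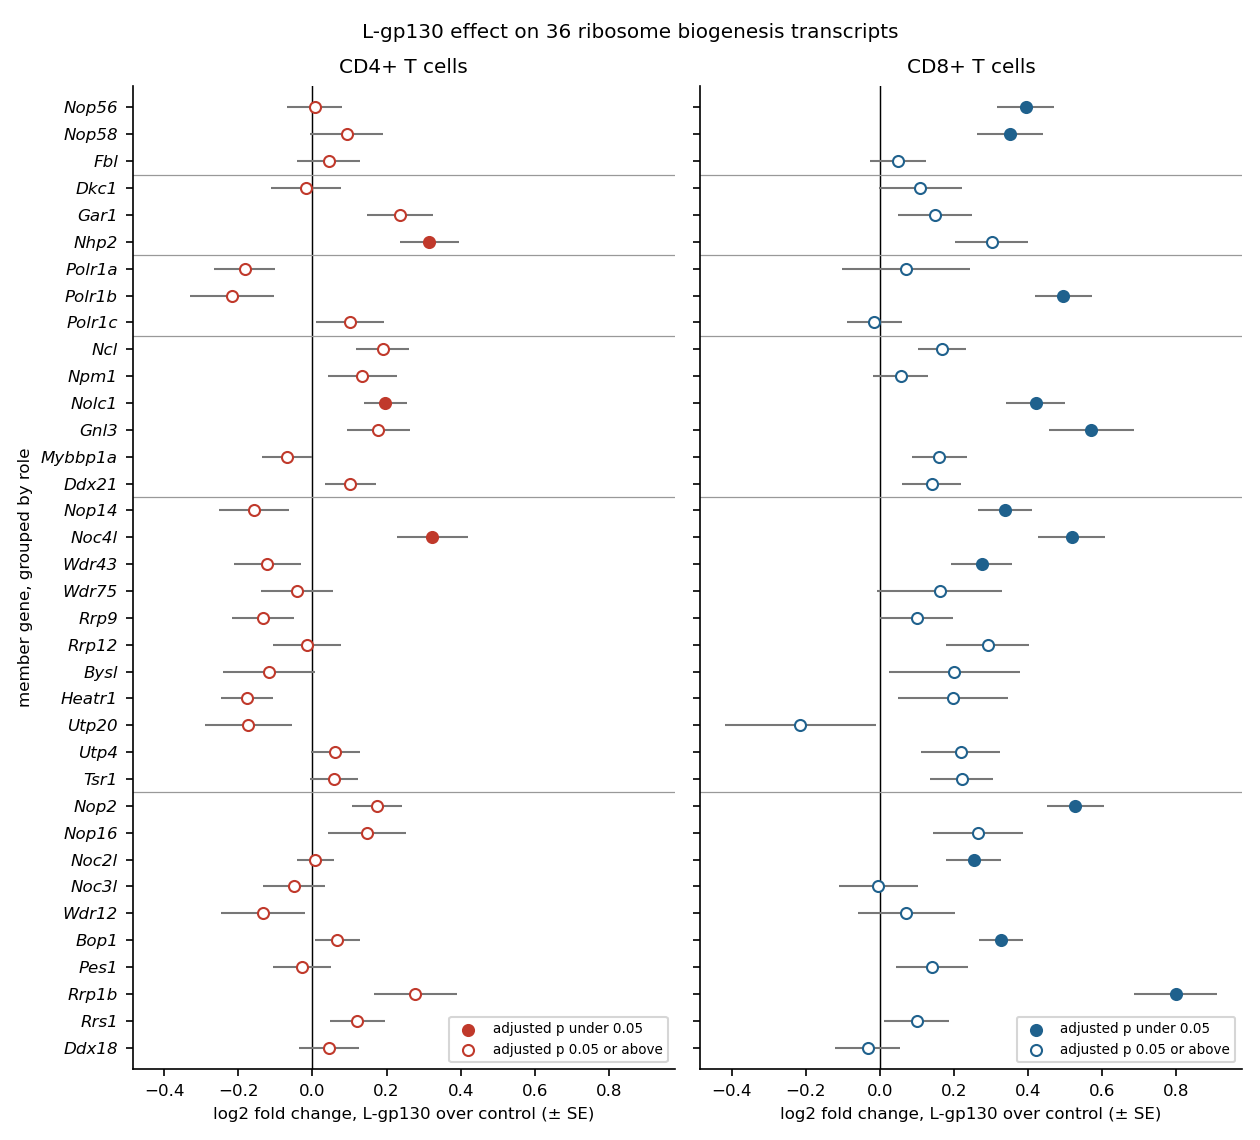
Log2 fold change of L-gp130 over control (x axis, ± SE) for the 36 members (y axis, grouped by role, with lines between the groups) in CD4+ cells, with 6 against 6 libraries, and CD8+ cells, with 3 against 6. Filled points passed edgeR's adjusted p of 0.05: 3 in CD4+ cells and 12 in CD8+ cells, all to the right of 0.

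Of the box C/D snoRNP proteins, the paired core proteins Nop56 and Nop58 rose in CD8 cells and the methyltransferase fibrillarin (Fbl) did not pass the test in either cell type. Nop56 (ENSMUSG00000027405, chr2:130274430-130279313, GRCm38) had the highest level of this group by TPM, Salmon's abundance corrected for transcript length, with a mean of 166 over all libraries. It stood at 222, 232 and 235 CPM in the 3 L-gp130 CD8 libraries, and the lowest, median and highest of the 6 controls were 156, 174 and 203 CPM. All 3 L-gp130 values were above the highest control, a log2 change of 0.39 ± 0.08 with an edgeR adjusted p of 0.00553. In CD4 cells the lowest, median and highest levels were 126, 145 and 158 CPM with L-gp130 and 129.8, 139 and 152 in controls, and the ranges overlapped (log2 0.01 ± 0.07). Nop58 (ENSMUSG00000026020, chr1:59684971-59719044) was at 136, 131 and 119 CPM in L-gp130 CD8 libraries, above controls of 88.2, 102 and 115 CPM (lowest, median, highest). Its log2 fold change was 0.35 ± 0.09 (edgeR adjusted p = 0.0185), and the call was lost without L-gp130 CD8 replicate 1 or 2. Fbl had log2 fold changes of 0.04 ± 0.09 in CD4 and 0.05 ± 0.08 in CD8 cells.

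Of the box H/ACA snoRNP proteins, Nhp2 rose in CD4 cells. Nhp2 (ENSMUSG00000001056, chr11:51619735-51623714), a core RNA-binding protein of these particles, was the member with the smallest p in CD4 cells. Its levels there were 47.1, 50.1 and 57.5 CPM with L-gp130 and 36.5, 39.97 and 43.6 CPM in controls (lowest, median, highest). The 6 L-gp130 values lay above the 6 controls, a log2 change of 0.32 ± 0.08 (edgeR adjusted p = 0.0158, and 0.117 without L-gp130 CD4 replicate 6). In CD8 cells Nhp2 was at 88.5, 73.6 and 55.6 CPM in L-gp130 replicates 1 to 3 against 54.9 to 63.9 in controls. Replicates 1 and 2 were above every control and replicate 3 was within their range, and the log2 fold change of 0.30 ± 0.10 missed the threshold (edgeR adjusted p = 0.0515). Gar1, another core protein, ranged from 28.96 to 38.7 CPM in L-gp130 CD4 libraries and from 24.96 to 29.7 in controls (log2 0.24 ± 0.09, edgeR adjusted p = 0.0823). In CD8 cells Gar1 was at 58.1, 56.7 and 42.4 CPM against 38.3 to 57.6 in controls. Dkc1, the pseudouridine synthase dyskerin, had log2 fold changes of -0.02 and 0.11 in CD4 and CD8 cells, neither past the test.

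Of the 3 RNA polymerase I subunits, Polr1b rose in CD8 cells and the others did not pass the test. Polr1b (ENSMUSG00000027395, chr2:129100995-129126594), the second-largest subunit, was at 63.3, 62.3 and 63.3 CPM in the L-gp130 CD8 libraries, and controls had 38.7, 45.9 and 47.9 CPM (lowest, median, highest). All 3 values lay above all controls (log2 0.50 ± 0.08, edgeR adjusted p = 0.00178). In CD4 cells Polr1b had 33.2, 36.3 and 45.7 CPM with L-gp130 and 38.3, 41.5 and 49.8 in controls. Its log2 fold change there was -0.22 ± 0.11, the lowest of the 36, and did not pass the test (edgeR adjusted p = 0.196). Polr1a, the largest subunit, had 60.99, 74.9 and 89.01 CPM in L-gp130 CD4 libraries and 84.2, 89.4 and 102 in controls (log2 -0.18 ± 0.08, edgeR adjusted p = 0.137). In CD8 cells its L-gp130 values of 69.4, 69.3 and 57.3 CPM fell inside the control range of 46.1 to 76.5. Polr1c, a subunit shared with RNA polymerase III, had the highest TPM of the 3 (mean 50.7) and log2 fold changes of 0.10 in CD4 and -0.02 in CD8 cells.

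Among the nucleolar chaperones and GTPases, Nolc1 was the member, with Noc4l, that passed the test in both cell types. Nolc1 (ENSMUSG00000015176, chr19:46075863-46085530), a scaffold that chaperones snoRNPs, had 87.5, 94.2 and 100.3 CPM in L-gp130 CD4 libraries and 77.9, 83.1 and 84.6 in controls, with no overlap. The CD4 difference was small, a log2 change of 0.20 ± 0.06 (edgeR adjusted p = 0.0314), and 7 of 12 fits that left out 1 library lost the call. In CD8 cells Nolc1 was at 144, 136 and 118 CPM against 93.9, 98.4 and 108 CPM (log2 0.42 ± 0.08, edgeR adjusted p = 0.00461), and the groups did not overlap. Gnl3 (ENSMUSG00000042354, chr14:31012433-31019152), the GTPase nucleostemin, was at 99.8, 101 and 82.5 CPM in L-gp130 CD8 libraries against 51.7, 63.9 and 73.9 CPM in controls. This was a log2 change of 0.57 ± 0.12 (edgeR adjusted p = 0.00666), the largest after Rrp1b. In CD4 cells the Gnl3 ranges of 46.1 to 60.8 and 43.2 to 47.8 CPM overlapped (log2 0.18 ± 0.09).

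Npm1, nucleophosmin, a nucleolar chaperone, was the most abundant member with a mean of 734 TPM. Because Npm1 has many near-identical pseudogenes, its reads may be shared with them. It had 856, 840.4 and 648 CPM in L-gp130 CD8 replicates 1 to 3 and 718, 756 and 769 CPM in controls (lowest, median, highest). Replicates 1 and 2 lay above every control and replicate 3 below every control, a log2 change of 0.06 ± 0.07 that missed the threshold. Its CD4 levels were 507, 567 and 703 CPM with L-gp130 and 490.4, 510.2 and 584 CPM in controls, which overlapped. Ncl, nucleolin, was next by level (242 TPM) and had log2 fold changes of 0.19 and 0.17 in CD4 and CD8 cells (edgeR adjusted p = 0.0849 and 0.0946). The helicase Ddx21 and Mybbp1a, a nucleolar Myb-binding protein, did not pass in either cell type.

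Of the 11 small subunit factors, Nop14, Noc4l and Wdr43 rose in CD8 cells and Noc4l rose in CD4 cells. Noc4l (ENSMUSG00000033294, chr5:110648418-110653417), the partner of Nop14 in the small subunit precursor, was at 52.5, 48.2 and 47.4 CPM in L-gp130 CD8 libraries and 30, 35 and 37.2 CPM in controls. The groups did not overlap, with a log2 change of 0.52 ± 0.09 (edgeR adjusted p = 0.00295). In CD4 cells Noc4l had 35.6, 39.6 and 48.8 CPM with L-gp130 and 28.97, 32.1 and 34.5 in controls (log2 0.32 ± 0.10, edgeR adjusted p = 0.0326), and 6 of 12 fits without 1 library lost the call. Nop14 was at 65.7, 65.7 and 60.9 CPM in L-gp130 CD8 libraries against 48.1 to 55.7 in controls (log2 0.34 ± 0.07, edgeR adjusted p = 0.00909), and in CD4 cells at 38.7 to 47.7 against 40.99 to 54.1 CPM (log2 -0.16). The CD8 call of Nop14 was lost without L-gp130 CD8 replicate 1 (edgeR adjusted p = 0.0561) and on reads per transcript, where the log2 fold change was 0.14 (adjusted p = 0.128). Wdr43, a scaffold of the small subunit processome, was at 137, 138 and 117 CPM in L-gp130 CD8 libraries and 98.3 to 119 in controls. These ranges overlapped at replicate 3, and the log2 fold change of 0.28 ± 0.08 (edgeR adjusted p = 0.0381) lost its call without any 1 of 6 libraries and on reads (0.13). The other 8 (Wdr75, Rrp9, Rrp12, Bysl, Heatr1, Utp20, Utp4 and Tsr1) had CD8 log2 fold changes from -0.21 for Utp20 to 0.29 for Rrp12 and CD4 values from -0.18 for Heatr1 to 0.06 for Utp4, none past the test. Bysl shares 361 bases of its span with the more abundant Ccnd3 on the other strand, and these libraries hold no strand.

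Large subunit factors held the largest CD8 change. Rrp1b (ENSMUSG00000058392, chr17:32036100-32062865), a nucleolar pre-ribosome protein, was at 80.8, 79.1 and 62.7 CPM in the L-gp130 CD8 libraries and 34.9, 43.4 and 47.8 CPM in controls. Each L-gp130 value was above every control, and the log2 fold change was 0.80 ± 0.11 (1.74-fold, edgeR adjusted p = 0.00111). In CD4 cells Rrp1b ranged over 47.2 to 68.4 CPM with L-gp130 and 36.6 to 51.4 in controls (log2 0.28 ± 0.11, edgeR adjusted p = 0.103). Nop2 (ENSMUSG00000038279, chr6:125131909-125144753), a ribosomal RNA cytosine methyltransferase, was at 94.2, 87.5 and 89.8 CPM in L-gp130 CD8 libraries and 54.9, 62.7 and 69.4 CPM in controls. Its log2 fold change of 0.53 ± 0.08 (edgeR adjusted p = 0.00137) compares with 0.17 ± 0.07 in CD4 cells (adjusted p = 0.0894), where levels were 53.3 to 67.1 and 50.1 to 53.5 CPM.

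Bop1, which forms the PeBoW complex with Pes1 and Wdr12, rose in CD8 cells by 0.33 ± 0.06 on the log2 scale (edgeR adjusted p = 0.00367), while Pes1 and Wdr12 had values of 0.14 and 0.07 that did not pass. Noc2l, a partner of Noc3l in 60S precursors, was at 205, 222 and 202 CPM in L-gp130 CD8 libraries, just above the highest control (controls 157 to 199.9). Its log2 fold change of 0.25 ± 0.07 (edgeR adjusted p = 0.0355) lost the call without any 1 of 6 libraries and on reads (0.13), and Noc3l did not pass. Nop16, the helicase Ddx18 and Rrs1, which helps load the 5S RNA particle, had CD8 values of 0.26, -0.03 and 0.10. No large subunit member passed the edgeR test in CD4 cells (0 of 10, with 2 at an unadjusted p under 0.05), where log2 fold changes ran from -0.13 for Wdr12 to 0.28 for Rrp1b.

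**Figure D2:**
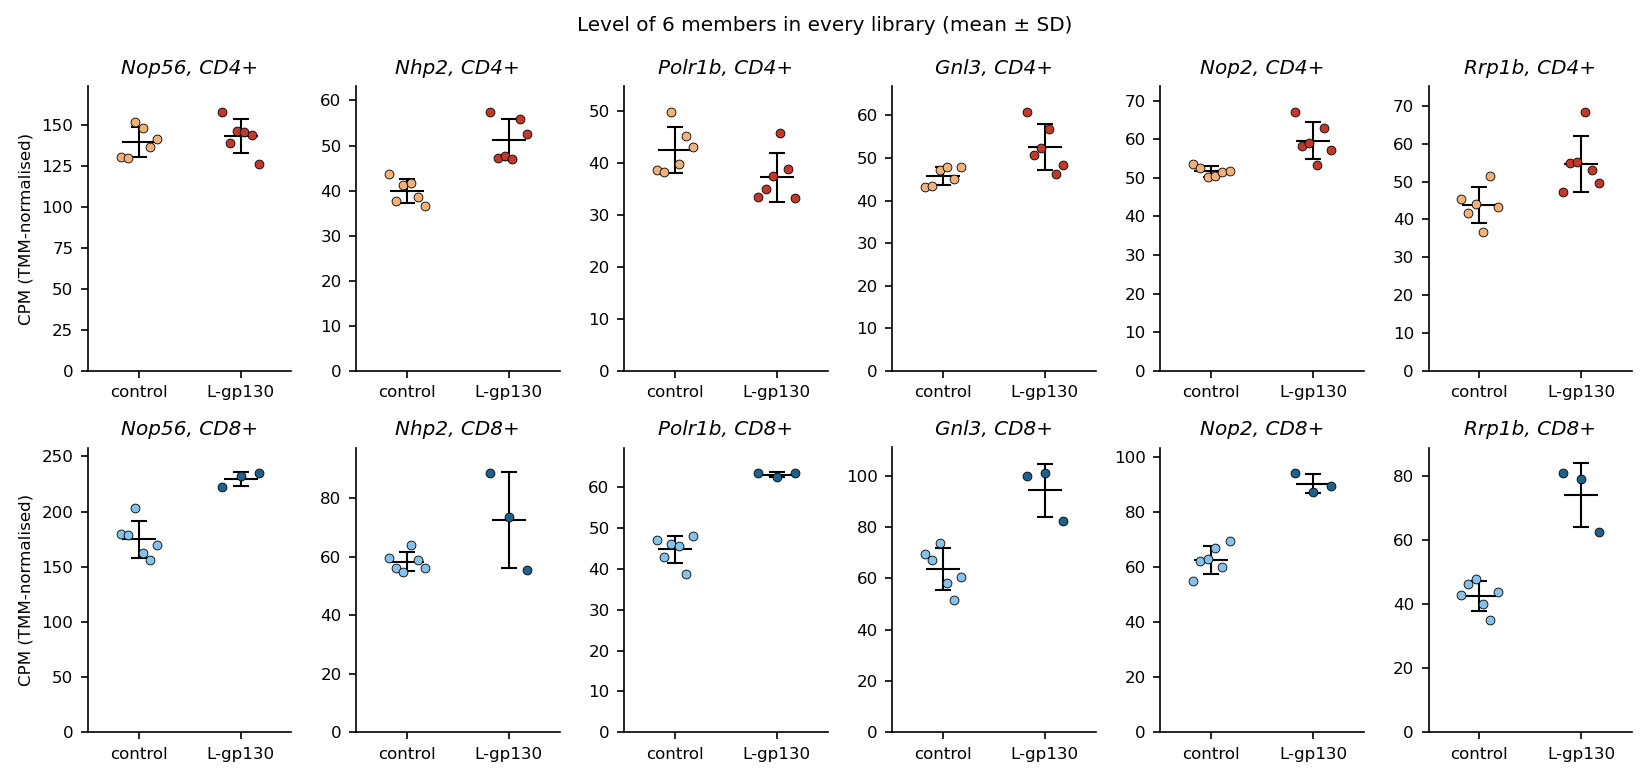
CPM (y axis, from 0) of 6 members in every control and L-gp130 library (points, x axis by genotype) with the mean ± SD, for CD4+ cells in the upper row and CD8+ cells in the lower row, which come from separate tables. For Nop56, Polr1b, Gnl3, Nop2 and Rrp1b all 3 L-gp130 CD8 points sit above the 6 controls, and for Nhp2 this holds for all 6 L-gp130 CD4 points.

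The 3 L-gp130 CD8 libraries were not alike. Taken as the log2 difference from the control CD8 mean, the median over the 36 members was 0.30 and 0.29 in replicates 1 and 2 and 0.04 in replicate 3, with controls from -0.06 to 0.09. Replicate 3 had the lowest value of the 3 for 31 members. It was above every control for 11 members and below every control for 5, against 26 and 0 for replicate 1 and 24 and 0 for replicate 2. These counts for single libraries were not set beside those over all genes, so they are not shown to be particular to the members. Replicates 1 and 2 were labelled male and replicate 3 female, and the 2 female controls had medians of -0.03 and 0.09, so among females the L-gp130 value lay between the controls. With 1 female L-gp130 CD8 library, sex and library cannot be told apart here. Leaving out replicate 3 gave 14 members called higher, where 5.69% of all genes tested rose, against 10.5% with every library. Leaving out replicate 1 or 2 gave 8 or 9, where 5.24% or 7.25% of all genes rose. With control replicates 1 to 3 alone the count was 18, where 10.05% of all genes rose. With 4 to 6 alone it was 12, where 13.28% of all genes rose. Both of these fits were chosen after seeing the data.

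Cell cycle genes rose with L-gp130 in both cell types. All 22 genes of a cell cycle list rose in CD4 cells (median log2 1.63) and 20 of 22 rose in CD8 cells (median 1.06, edgeR adjusted p under 0.05). In L-gp130 CD4 libraries the median difference from the control mean ran from 0.35 to 2 for the cell cycle list and from 0.00 to 0.20 for the members. The control CD4 libraries ran from -0.81 to 0.47 for the cell cycle list, and control replicates 3, 4 and 5 (0.40, 0.41 and 0.47) lay above L-gp130 replicate 4 (0.35). Every L-gp130 CD4 library was above every control for 8 of the 22 genes. L-gp130 CD8 replicate 3, whose members were near the controls, had a cell cycle median of 1.09, between those of replicates 2 (0.90) and 1 (1.24). The difference between the lists was not tested.

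**Figure D3:**
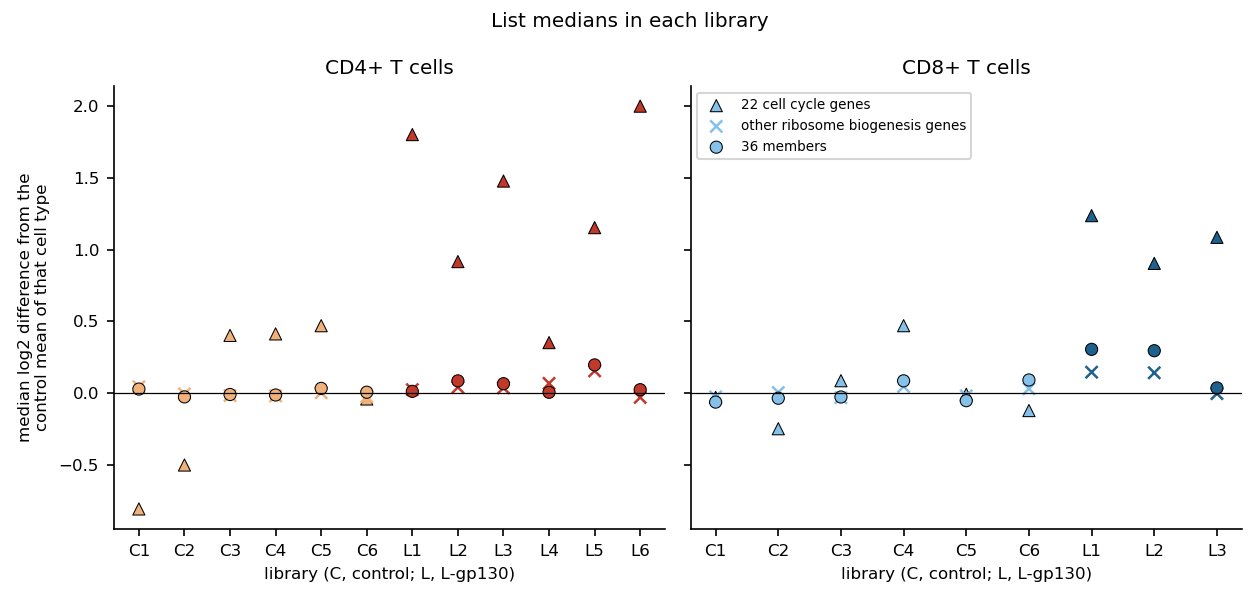
Median log2 difference from the control mean of the same cell type (y axis) in each library (x axis) for the 36 members (circles), other ribosome biogenesis genes (crosses) and the 22 cell cycle genes (triangles). In CD4+ cells the L-gp130 triangles lie at 0.35 to 2, overlapping control triangles at -0.81 to 0.47, the L-gp130 circles at 0.00 to 0.20, and in CD8+ cells the circles of L-gp130 replicates 1 and 2 lie at 0.30 and 0.29.

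Marker genes of several cell types changed with L-gp130 as well. In CD8 cells both CD8 markers and 3 of 6 T cell markers fell (summed level 2906 to 3267 CPM with L-gp130, 3570.1 to 3828 in controls). There, 7 of 12 monocyte-macrophage markers fell (305 to 445 against 397 to 837 CPM), as did 2 of 5 NK cell markers (78.7 to 94.3 against 78.1 to 134 CPM). In the same libraries 3 of 10 tested erythroid markers rose (sum 81.8 to 179 against 55.6 to 737 CPM) and 1 of 7 plasma cell markers rose (sum 250.4 to 573 against 149.6 to 262 CPM). Of the erythroid markers, 5 had log2 fold changes above 0 and 5 below, with a median of 0.02. In CD4 cells 1 of 2 CD4 markers, Zbtb7b, fell by 0.52, with every L-gp130 library below every control, and Cd4 had a log2 fold change of -0.03. There, 4 of 10 B cell markers fell (273 to 668 against 281 to 1058 CPM) and 3 of 6 tested plasma cell markers rose (243 to 389 against 175 to 226 CPM). All 10 tested erythroid markers had log2 fold changes above 0 in CD4 cells (median 0.87), and 0 passed the test. None of the 77 markers with an ID was at 0 in every library. Their part in the member values was not tested.

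The difference between the L-gp130 effects in CD8 and CD4 cells was tested directly over all 21 libraries, on reads per transcript summed per gene. This fit, also used below for the controls, took the libraries as independent. Whether a CD4 and a CD8 library came from the same mouse was not tested. Polr1b and Gnl3 had a more positive effect in CD8 cells and 0 members in CD4 cells, where 1.63% and 1.83% of the 15750 genes tested did (edgeR adjusted p under 0.05). The term was 0.49 ± 0.10 for Polr1b (adjusted p = 0.00684) and 0.43 ± 0.11 for Gnl3 (edgeR adjusted p = 0.0432). At an unadjusted p under 0.05 it was more positive in CD8 cells for 16 members and in CD4 cells for 0. Of all 15750 genes tested, 1150 and 1602 were so. DESeq2 called 7 and 0 members, and 3.03% and 3.02% of all genes. The median term over the members was 0.20, against -0.04 over all genes tested. Nhp2, which passed in CD4 and not in CD8 cells, had a term of 0.04 ± 0.12, and Nop56, which passed in CD8 only, had 0.27 ± 0.10 (edgeR adjusted p = 0.165), so neither effect was shown to differ. Polr1b kept its call in all 21 fits that left out 1 library and Gnl3 in 9 of 21. Without L-gp130 CD8 replicate 3, 7 members were called, where 1.43% of all genes were called more positive in CD8 cells. Without L-gp130 CD4 replicate 1, 6 members were called, where 2.60% of all genes were. Without L-gp130 CD4 replicate 4 or control CD8 replicate 3 or 6, 4 members were called, where 1.155% to 2.003% of all genes were. Polr1b alone was called without L-gp130 CD4 replicate 2, 3 or 6, control CD4 replicate 3, 4, 5 or 6, L-gp130 CD8 replicate 1 or 2, or control CD8 replicate 4. In those fits 0.825% to 1.45% of all genes were called more positive in CD8 cells.

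Without the L-gp130 allele, the 2 cell types held these transcripts at unequal levels. On the same reads, control CD8 libraries had more than control CD4 libraries for 32 of 36 members and less for 1, Polr1a, where 27.2% and 24.3% of the 15750 genes tested were so called (edgeR adjusted p under 0.05). Fbl, the methyltransferase that did not pass with L-gp130, showed 183, 193 and 202 CPM in control CD8 libraries and 97.5, 101 and 112 in control CD4 libraries (lowest, median, highest). Its groups did not overlap, a log2 difference of -0.86 ± 0.08 for CD4 minus CD8 (edgeR adjusted p = 1.57e-08). Gar1 had 48.6, 50.9 and 57.2 CPM in control CD8 and 22.5, 27.4 and 28.4 in control CD4 libraries (log2 -0.86 ± 0.09). Rrs1 (-0.62), Gnl3 (-0.59), Nhp2 (-0.58) and Npm1 (-0.55) followed on the log2 scale. Polr1a went the other way, with 82.5, 89.7 and 95.4 CPM in control CD4 and 52.1, 65.9 and 74.1 in control CD8 libraries (log2 0.40 ± 0.10, edgeR adjusted p = 0.0028). Heatr1, Utp20 and Wdr12 did not pass. With RLE factors or DESeq2, 28 members were lower and 2 (Polr1a and Wdr12) higher in control CD4 cells. Of all genes, 23.3% were lower and 26.3% higher there with RLE factors, and 24.1% and 27.3% with DESeq2.

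Every control CD8 library was above every control CD4 library for 29 members (where 19.2% of genes tested were), the reverse held for Polr1a and Wdr12 (18.3% of genes tested), and every CD8 library of either genotype was above every CD4 library for 17 (7.19% of genes tested). The median difference of the members from the control CD8 mean ran from -0.38 to -0.28 in CD4 libraries of controls and from -0.33 to -0.17 in those with L-gp130, and the 3 L-gp130 CD8 libraries had 0.06 to 0.27. The cell types also differed in how they were isolated and in what came with them. All 10 B cell markers and 8 of 10 matched erythroid markers were higher in control CD4 libraries, where the erythroid markers summed to 4605 to 26248 CPM against 55.6 to 737 in control CD8 libraries. The 6 T cell markers had a median log2 difference of -0.34, near the -0.33 of the members, and 4 of 6 were lower in control CD4 libraries. Cell type and isolation cannot be told apart.

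**Figure D4:**
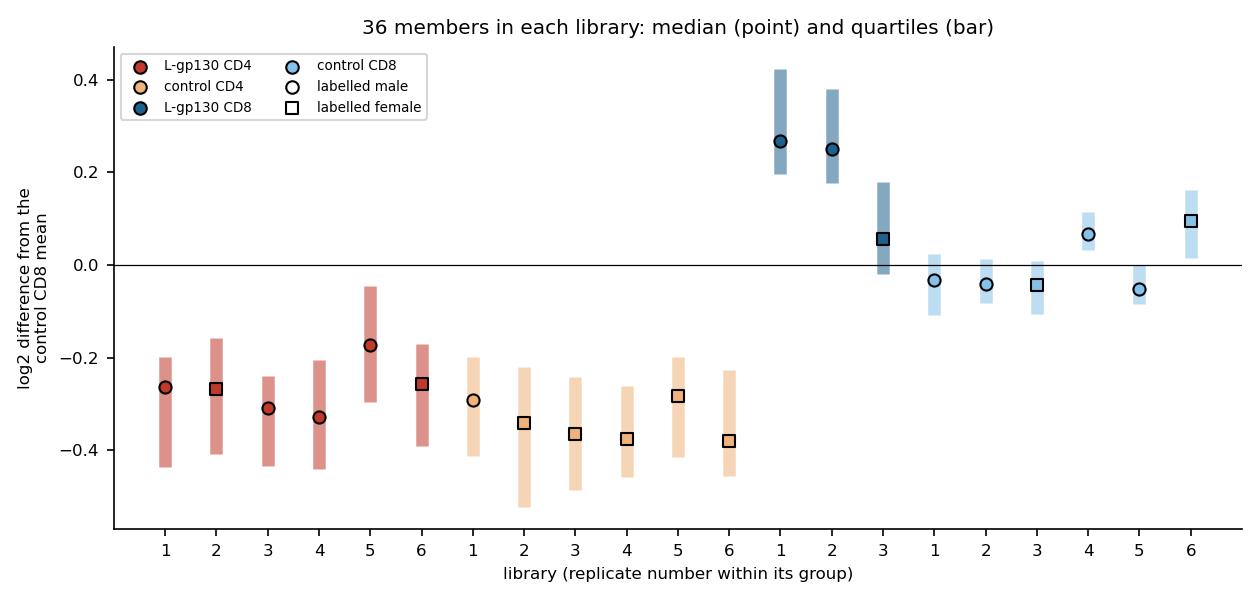
Log2 difference of the 36 members from the control CD8 mean (y axis), as the median (point) and quartiles (bar) in each of the 21 libraries (x axis, by replicate number, coloured by group, shaped by labelled sex). All CD4 medians lie below -0.17, and of the L-gp130 CD8 libraries replicates 1 and 2 stand at 0.27 and 0.25 and replicate 3 at 0.06.

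**Figure D5:**
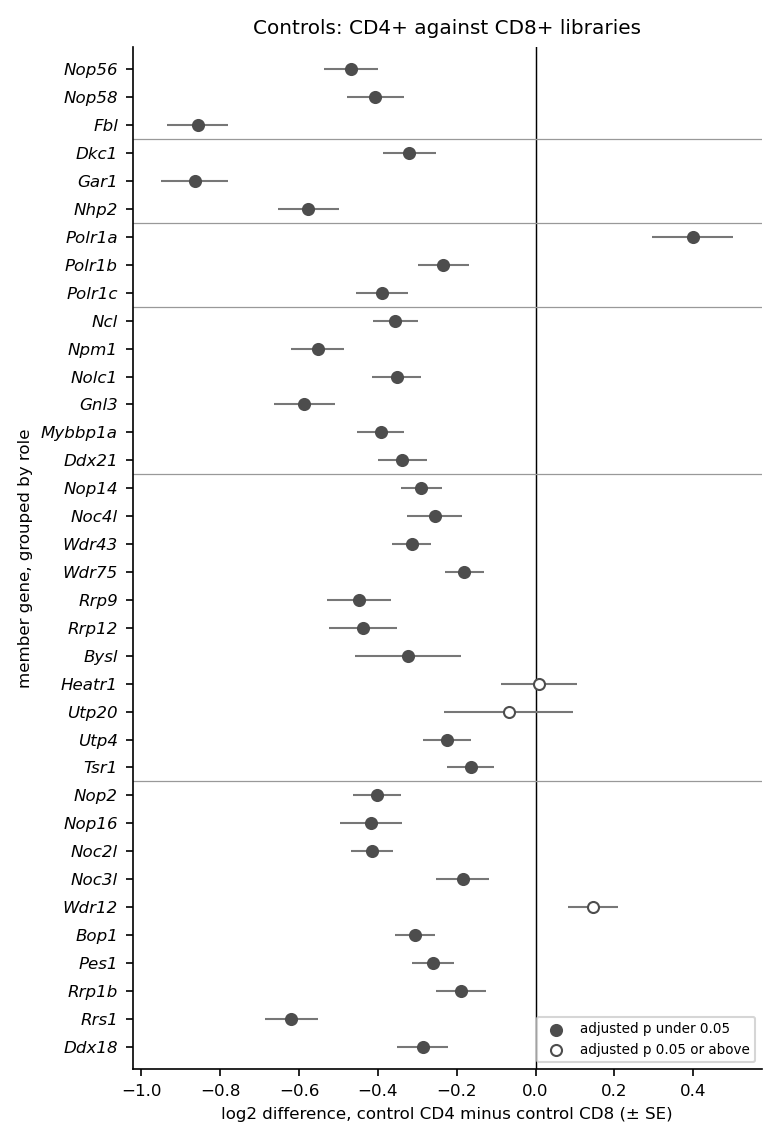
Log2 difference between control CD4 and control CD8 libraries (x axis, CD4 minus CD8, ± SE, 6 against 6 libraries) for the 36 members (y axis, grouped by role). Filled points passed edgeR's adjusted p of 0.05: 32 lie to the left of 0 and Polr1a to the right.

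Further genes of the pathway, 123 in lists of small subunit, large subunit, polymerase I, snoRNP and exosome factors, were read beside the members. In CD8 cells 15 rose (12.2%, against 10.5% of all genes tested) and 4 fell (3.25%, against 10.5%), with a median log2 fold change of 0.09. By list, 5 of 34 small subunit, 5 of 43 large subunit, 3 of 17 polymerase I, 1 of 14 snoRNP and 1 of 15 exosome genes rose there, and 2 large subunit genes (Nop53 and Nsa2) and 2 exosome genes (Exosc6 and Xrn2) fell, the 4 being named after their values were seen. In CD4 cells 7 of 122 rose (5.74%, against 11.1% of all genes tested) and 0 fell (against 7.75%), with a median of 0.02. Nol10, a small subunit factor, rose in both, by 0.44 ± 0.08 in CD4 (edgeR adjusted p = 0.00347) and 0.50 ± 0.09 in CD8 cells (adjusted p = 0.00455). Rpap3, a cochaperone of snoRNP assembly, rose by 0.37 ± 0.08 in CD4 cells (edgeR adjusted p = 0.00986), and Snu13, a box C/D core protein that also sits in the spliceosome, by 0.32 ± 0.10. The exosome subunits Exosc8 and Exosc3 rose there by 0.35 ± 0.08 and 0.32 ± 0.08. The helicase Ddx24 rose by 0.21 ± 0.06 and Polr1d, a small subunit of polymerases I and III, by 0.31 ± 0.08. In CD8 cells, Exosc8 (0.33 ± 0.09) and Polr1d (0.22 ± 0.07) rose too, and the values of Rpap3, Snu13, Exosc3 and Ddx24 lay between 0.10 and 0.25 and did not pass. Of the 123, 82 were lower in control CD4 than in control CD8 libraries (66.7%, against 27.2% of all genes tested) and 1 was higher (against 24.3%).

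Myc, a known activator of many of these genes, was at 228, 267 and 265 CPM in L-gp130 CD8 replicates 1 to 3. Control CD8 replicates 1 to 3 had 184, 197 and 209 CPM and replicates 4 to 6 had 131, 117 and 137, so the controls fell apart along the split seen in the principal component, and all lay below the L-gp130 values. Myc rose by 0.64 ± 0.18 (edgeR adjusted p = 0.0331), by 0.37 against control replicates 1 to 3 alone and by 0.98 against 4 to 6 alone. The call was lost without any 1 of the 3 L-gp130 libraries (edgeR adjusted p = 0.0806 to 0.12) or of control replicates 4 and 6. It was also lost without the filter on low counts (edgeR adjusted p = 0.103) and on reads per transcript summed per gene (0.55, adjusted p = 0.0702). L-gp130 CD8 replicate 3, at 265 CPM of Myc, had the lowest member median of the 3 L-gp130 CD8 libraries. That median was 0.04 from the control CD8 mean, and 11 members were above every control. A link between Myc and the member levels was not tested. In CD4 cells Myc lay between 80.5 and 101 CPM with L-gp130 and between 78.3 and 92.6 in controls (log2 0.03 ± 0.06). Of a list of 10 MYC network genes, 2 of 9 tested rose in CD4 cells and 0 fell, and in CD8 cells Myc rose and 2 fell. Mxi1 and Mxd3, partners of MAX that oppose MYC, rose in CD4 cells by 0.54 ± 0.12 and 1.57 ± 0.36. In CD8 cells the 2 that fell, also named after their values were seen, were Mycn and Mxd4. Mycn fell by 1.04 (adjusted p = 0.0184) and Mxd4 by 0.71 (edgeR adjusted p = 0.000538).

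The members are transcribed into many forms, and the deposited gene counts weigh them by length. GENCODE lists 237 transcripts for the 36 genes, of which 83 are protein coding and 102 retain an intron. In CD8 cells 9 members were called on both the gene table and the reads, 3 on the gene table only (Nop14, Wdr43 and Noc2l) and 7 on the reads only (Nhp2, Ncl, Wdr75, Rrp12, Utp4, Tsr1 and Nop16). Of all genes tested there, 14.5% rose and 12.99% fell on the reads, against 10.5% and 10.5% on the gene table. The CD8 log2 fold change of Nop14 was 0.34 in the gene table and 0.14 in reads, that of Wdr43 0.28 in the gene table and 0.13 in reads and that of Rrp1b 0.80 in the gene table and 0.64 in reads. For Nop14, a retained-intron form held 14.05%, 20.4% and 9.08% of the gene's TPM in the L-gp130 CD8 libraries and 3.92%, 6.42% and 0% in control CD8 replicates 1 to 3, and it was listed at 0 in replicates 4 to 6. For Rrp1b, protein-coding forms held 25.9%, 24.4% and 28.8% of the gene's TPM in L-gp130 CD8 replicates 1 to 3. They held 27.7%, 25.3% and 20.9% in control CD8 replicates 1 to 3 and 36.8%, 34.9% and 41.0% in replicates 4 to 6. Nop14 and Rrp1b were chosen for this after their values were seen, and the shares are Salmon's estimates with no test.

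Some members host small nucleolar RNA genes within their span. This holds for 7 of 36 members (19.4%), against 1.64% of the 12410 protein-coding genes tested in CD8 cells. Nop56 holds 5 such genes, Nop58 4, Ncl, Gnl3 and Wdr43 3 each, Tsr1 2 and Dkc1 1. Of these 7 hosts, Nop56, Nop58, Gnl3 and Wdr43 rose in CD8 cells and Ncl, Tsr1 and Dkc1 did not pass. Polyadenylated RNA libraries do not measure the snoRNAs themselves.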

How the data were processed

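Estimated counts per gene were deposited by the authors in a table for each cell type, and estimated counts (reads) and TPM per transcript for each library, per the file headers. The submitters' processing notes name cutadapt 3.4, Trimmomatic 0.39, Salmon 1.5.2, edgeR 3.34.1 and GRCm38. The gene tables are scaled by transcript length within each table, per the values in the files, so CD4 and CD8 libraries were fitted separately on them and compared with each other on reads per transcript summed per gene. Symbols and positions came from GENCODE mouse release 21 (51115 of 51201 IDs matched).

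Counts were rounded and compared by the robust quasi-likelihood F test of edgeR 4.0.16 (R 4.3.3, genes kept by filterByExpr, TMM factors, 2-sided, labelled sex as covariate, Benjamini-Hochberg adjustment over all genes tested, called under 0.05). Fold changes are L-gp130 over control, and each SE is the absolute log2 value divided by the root of F. CPM are TMM-normalised. Tables were made with Python 3.11.15 and pandas 2.3.3, and the fits were tested on simulated data. The members and lists were chosen with earlier results of these data known. Values in each library are given for the member of each role with the highest TPM, the 1 with the smallest p in CD4 and up to 2 in CD8 cells. Of the other lists, the named genes are called members with the smallest p in CD4 cells, and Myc. Alternatives were RLE factors, DESeq2 1.42.0, all genes kept, a minimum of 1 CPM, sex left out of the model, a replicate block, reads or joined tables, equal depth, leaving out libraries and, chosen after seeing the data, 3 of the 6 control CD8 libraries. Libraries of a group differed beyond sampling noise (lowest chi-square per gene 9.75). The labels do not say whether mice shared litters or days, so p-values measure the spread between these libraries.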

Additional observations from a re-analysis of the deposited data

Results flagged for a closer look

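Single libraries stood far from the rest of their group in 2 of 48 groups of values examined, and chance gives about 1 in 20. Polr1c was at 50.7 CPM in L-gp130 CD4 replicate 5, and the other 5 libraries lay between 39.8 and 43.2 CPM. Npm1 was at 584 CPM in control CD4 replicate 1, and the other 5 lay between 490.4 and 521 CPM.

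The L-gp130 effect differed between the cell types for 2 members. It was larger in CD8 cells by 0.49 on the log2 scale for Polr1b (edgeR adjusted p = 0.00684) and by 0.43 for Gnl3 (adjusted p = 0.0432).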

How the results depend on the processing

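The CD8 result kept its direction under every alternative run, with 8 to 15 members higher and 0 lower when 1 library was left out and 11 to 18 higher and 0 lower otherwise. In CD4 cells 3 members were called, but 5 with DESeq2, 1 without the filter, 7 higher and 1 lower without the sex covariate, and 0 to 4 higher and 0 to 1 lower with 1 library left out. With 1 library left out, the share of all genes called higher ran from 5.24% to 10.5% in CD8 cells. Over the other alternatives it ran from 5.73% to 14.5% there. In CD4 cells the share with 1 library left out ran from 5.33% to 12.9%. It was 13.9% there with DESeq2, 4.76% without the filter and 15.8% without the sex covariate. Members with a larger effect in CD8 cells numbered 2, but 7 with DESeq2, 4 without L-gp130 CD4 replicate 1 and control CD4 replicate 5, and 1 to 7 with 1 library left out. Of all genes, 1.63% were called more positive in CD8 cells in the main fit and 3.03% with DESeq2. That share was 2.71% without those 2 libraries and 0.825% to 2.60% with 1 library left out. In every fit 0 members had a larger effect in CD4 cells. Members higher in control CD4 numbered 1, but 2 (Polr1a and Wdr12) with RLE factors, DESeq2, no filter, the 1 CPM filter, no sex covariate or without those 2 libraries, and 1 to 2 with 1 library left out. Of all genes, 24.3% were higher in control CD4 in the main fit. That share was 15.7% to 27.3% in the alternatives with 2 members and 22.4% to 25.6% with 1 library left out. Members higher in control CD8 numbered 28 to 32 with 1 library left out and 23 with the 2 tables joined. Of all genes, 24.0% to 28.9% and 20.8% were so called. Without the filter the median of all genes in that comparison was 0.14. Same-numbered L-gp130 and control libraries of a cell type had correlations from -0.205 to 0.178. These come from different mice, so they cannot show whether a CD4 and a CD8 library came from the same mouse. A fit with the replicate block called 1 member in CD4, 17 in CD8 cells, where the block replaced sex, 1 for the difference of effects and 30 between the controls. Of all genes, it called 9.54% higher with L-gp130 in CD4 and 8.99% in CD8 cells. It called 0.844% of all genes more positive in CD8 cells, and 22.5% higher and 24.4% lower in control CD4. No value that changed sign was past the threshold, in the main fit or in the fit that reversed it. Nop56 in CD4 cells went to -0.017 without the filter, -0.013 without those 2 libraries and -0.096 to 0.069 with 1 left out, and Noc2l to -0.016 without the filter and -0.028 to 0.021. In CD8 cells Polr1c went to 0.078 on reads and -0.055 to 0.0096 with 1 left out, and Polr1a to -0.18 against control replicates 4 to 6 and -0.013 to 0.19. The difference of effects went to -0.025 without sex and -0.093 to 0.18 for Nhp2, to 0.016 without the filter, 0.0056 with the replicate block and -0.10 to 0.089 for Gar1, to -0.10 to 0.0051 for Polr1c, and for Npm1 to 0.0060 with RLE factors, 0.0061 with DESeq2, 0.034 without the filter, 0.00073 with the 1 CPM filter and -0.038 to 0.086. The causes were not tested. With 3 L-gp130 CD8 libraries and effects under 1 on the log2 scale, a member that missed the threshold is not shown to be unaffected.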

Other observations

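Among the 36, 12 share part of their span with a gene on the opposite strand that has a mean of at least 1 CPM, and the libraries hold no strand. Of those called in CD8 cells, Nop56 shares 5 bases with Idh3b, Gnl3 15 with Pbrm1, Bop1 50 with Mroh1 and Noc2l 651 with Samd11. Samd11 had a mean of 5.29 CPM, and Noc2l 156 CPM. Nhp2, called in CD4 cells, shares 44 bases with Rmnd5b.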
